A study of Mus musculus with 240 samples.

Results

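The Nxf and Nxt genes encode the receptors that carry messenger RNA out of the nucleus. They were taken from the compiled count table of the series by symbol, and all 5 named members (Nxf1, Nxf3, Nxf7, Nxt1 and Nxt2) were found among its 34623 genes. The choice used measured values in 1 respect: Nxf3 was picked because it rose strongly in the tumours, so its values in comparisons that hold tumours are given as a description with no test. The other 4 members were taken by name as its family and were tested. Nxf3 was not tested in the other comparisons either, because it passed the filter on low counts through the tumours alone. The 5 members passed the filter on low counts in the bulk libraries, which left 16349 genes. In the 10-cell and pool-and-split libraries the filter kept Nxf1, Nxt1 and Nxt2.

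The series followed mouse brain cells from premalignancy to glioma after deletion of the tumour suppressors Trp53 and Nf1. Oligodendrocyte precursor cells (OPCs), the dividing glial cells that give rise to myelinating oligodendrocytes, were cut from frozen brain sections by laser capture microdissection. Time is counted in days from the start of tamoxifen treatment (dpi), and bulk titles mark the cells as positive for tdT, a fluorescent reporter. Bulk libraries came from wild-type (WT) animals at 12 dpi (n = 5), 90 dpi (n = 5) and 150 dpi (n = 6), from Trp53-/- Nf1-/- animals (CKO in the titles) at 12 dpi (n = 7) and 90 dpi (n = 7), and from brain tumours of Trp53-/- Nf1-/- animals at 150 dpi (n = 7). The 37 animals gave 48 bulk libraries, and the 2 libraries of each of 11 animals were summed. All 192 small libraries came from Trp53-/- Nf1-/- OPCs: 112 were made from 10 cells each, and 80 were pool-and-split controls, in which RNA of pooled cells is divided into equal shares. They fall into 4 sets a time by sex and a number in the title, 14 libraries a set for 10-cell samples and 10 for the controls, at 12 and 90 dpi. The driver of the deletion, and whether small sets are separate animals, are not given in the sources used here, so tests over sets measure the spread between sets only. No CKO OPCs at 150 dpi were analysed here, so the tumours differ from WT in genotype and in state, and from CKO at 90 dpi in state and in time.

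NXF1 (also called TAP) is the general export receptor of messenger RNA, and it works as a dimer with the small protein NXT1 (also called p15). Adaptors of the TREX complex load the dimer onto spliced and processed RNA, the dimer passes through the pore by touching its nucleoporins, and the helicase DDX19 strips it off on the cytoplasmic side. NXT2 is a paralog of NXT1. NXF3 and NXF7 belong to an X-linked group of NXF genes with narrower expression. NXF3 is best known from testis, and in flies a protein of that name exports the precursors of germline piRNAs. Nxf1 lies on chromosome 19 (ENSMUSG00000010097, 8757073 to 8772475, plus strand) and Nxt1 on chromosome 2 (ENSMUSG00000036992, 148672601 to 148676027, plus strand). The other 3 lie on the X chromosome: Nxf3 (ENSMUSG00000057000, 136072099 to 136085255, minus strand), Nxf7 (ENSMUSG00000031410, 135579555 to 135598777, minus strand) and Nxt2 (ENSMUSG00000042271, 142226770 to 142239692, plus strand). Coordinates are of mouse build GRCm38. Values below count reads over all exons of a gene. No other gene overlapped a member's span in the GENCODE M21 annotation, which ends Nxf1 at 8770922, and bases beyond were not checked. No other gene had a transcript matching a member's with at least 95% identity over 50% of the shorter transcript. That was the limit used here for a near-identical copy. Partial matches at that identity were found for Nxf7 alone, over at most 38.0% of the shorter transcript. Among them was Gm15019, which had counts deposited, at 99.1% identity over 25.6%. Their part in the Nxf7 counts was not tested.

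RefSeq start-site sequences (build GRCm38.p6) matched 4 of the 5 members, all but Nxf3. Each of the 4 had 2 such sequences, and the first listed was used. The stretches upstream of Nxf1, the general receptor, and of Nxf7, the member that fell in the tumours, are shown because they sit at opposite ends in the number of CG pairs (capitals; one strand 5′ to 3′, in the direction of the gene). The Nxf1 stretch is chr19:8756853-8757072 (plus strand, 220 bases, ending where the annotated gene begins) and the Nxf7 stretch is chrX:135598782-135599031 (minus strand, 250 bases).
Nxf1: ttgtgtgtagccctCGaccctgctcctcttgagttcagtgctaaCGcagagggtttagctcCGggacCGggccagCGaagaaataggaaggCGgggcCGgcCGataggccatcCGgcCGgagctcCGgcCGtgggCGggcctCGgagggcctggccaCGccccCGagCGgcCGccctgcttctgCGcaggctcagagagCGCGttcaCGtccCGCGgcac
Nxf7: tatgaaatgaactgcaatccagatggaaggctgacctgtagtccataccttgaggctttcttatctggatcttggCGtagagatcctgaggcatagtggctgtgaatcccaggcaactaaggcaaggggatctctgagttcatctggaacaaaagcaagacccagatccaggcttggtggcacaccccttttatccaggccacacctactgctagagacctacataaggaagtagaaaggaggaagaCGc
Over the full 250 bases before the RefSeq start, Nxf1 had 30 CG pairs, a number that 5.9% of 32851 such windows of all genes reached. Nxt1 had 12 (33.5% of windows had as many), Nxt2 8 (43.0%) and Nxf7 2 (81.2%), and the median window had 6. The Nxt2 window lay wholly inside the annotated gene, so it does not describe bases before that gene. These counts describe the letters of the windows. No methylation or binding was measured.

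Values are given as CPM, the count of a gene per 1000000 counts of its library after TMM normalization. Bulk libraries held 93644 to 23199092 counts each (median 9999470). A pair of animals stood apart from the rest. WT_21167 at 90 dpi held only 93644 counts. CKO_20647 at 90 dpi had 2 libraries that differed, with a correlation of 0.886 across genes, against 0.972 to 0.995 for the 10 other animals with 2 libraries. In its first library, of 9670248 counts, Nxf1 was at 151 CPM, Nxt1 at 6.93, Nxf3 at 4.96 and Nxf7 at 5.38. In its second, of 9468875 counts, Nxf1 was at 56.2 CPM and Nxt1 at 19.8, and Nxf3 and Nxf7 had no count. Results that rest on either animal are given with and without it, or without both WT_21167 and the second library of CKO_20647, called the doubted libraries below.

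Nxf3 was close to absent outside the tumours and abundant in each of them. In the 7 tumours the lowest level was 16.6 CPM, the median 77.2 and the highest 310. In the 30 other animals the highest value was 2.94 CPM, in CKO_20647 at 90 dpi, so the lowest tumour stood 5.64 times above the highest of them. Apart from that animal the highest was 1.81 CPM. By group the mean was 131 ± 102 CPM for the tumours (SD, n = 7), 0.866 ± 1.09 in CKO at 90 dpi (SD, n = 7), 0.303 ± 0.469 in WT at 150 dpi (SD, n = 6), 0.299 ± 0.259 in CKO at 12 dpi (SD, n = 7), 0.283 ± 0.273 in WT at 90 dpi (SD, n = 5) and 0.224 ± 0.357 in WT at 12 dpi (SD, n = 5). Neighbours in this order below the tumours overlapped in range.

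The low values outside tumours rest on few reads. Nxf3 was counted in 2 of 5 WT animals at 12 dpi, 5 of 7 CKO animals at 12 dpi, 3 of 5 WT at 90 dpi, 6 of 7 CKO at 90 dpi and 2 of 6 WT at 150 dpi, with 8, 40, 25, 106 and 13 counts summed over each group, against 22138 counts over the tumours. A count of 0 in WT at 150 dpi allows up to 0.204 CPM in the deepest such library and 1.70 CPM in the shallowest. The intervals and limits given here cover counting error only.

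**Figure D1:**
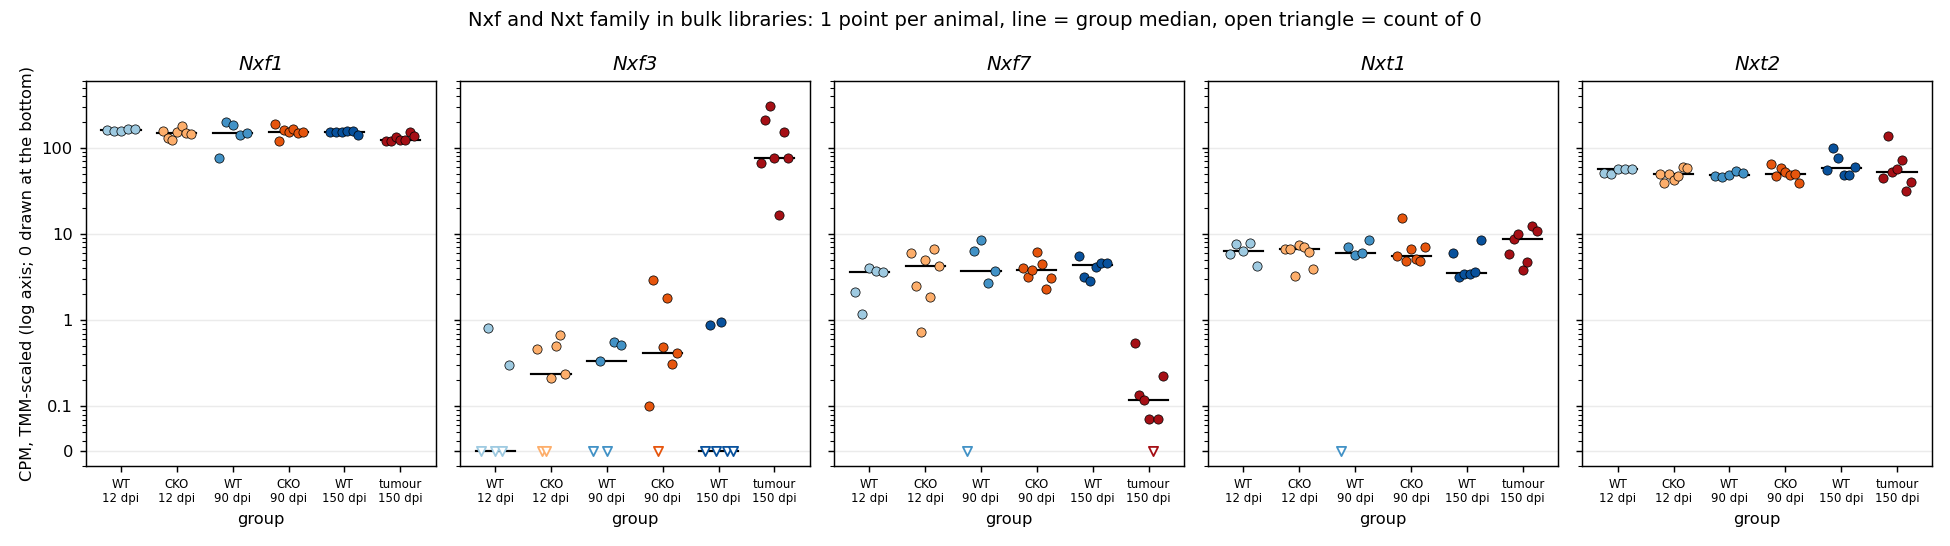
CPM of the 5 members in 37 bulk animals on a shared log axis, 1 point per animal, with the group median as a line and counts of 0 drawn as open triangles at the bottom. Nxf3 sits at 16.6 to 310 CPM in the 7 tumours and at 2.94 or below elsewhere, Nxf7 sits at 0.549 CPM or below in the tumours, and Nxf1, Nxt1 and Nxt2 overlap between the groups.

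The fitted log2 change of Nxf3 was 8.51 (SE 0.88) between tumours and WT at 150 dpi and 7.07 (SE 0.69) between tumours and CKO at 90 dpi. These were the 27th and the 25th largest rises among the 16349 genes tested. All 7 tumours lay above every animal of either group, as did the tumours for 6.72% and 6.77% of genes tested. The size of the change depends on reads in few animals of the comparison group: without WT_21593, one of the pair with any Nxf3 count, the change against WT was 10.01, and without CKO_20647 that against CKO was 7.83.

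Tumours differed among themselves in Nxf3 by 18.7-fold from lowest to highest. The 3 female tumours were at 67.9 to 310 CPM and the 4 male tumours at 16.6 to 214 CPM, so the sexes overlapped. The tumours' second libraries gave nearly the same level, with a ratio of 1.00 to 1.23 between the 2 libraries of a tumour and a median of 1.01, so the spread lay between tumours and not between their libraries. The tumour with the lowest Nxf3, Tumor_21256, also had the lowest summed level of the 20 proliferation genes (556.4 CPM). It had the highest of the 10 neuron markers (1512 CPM) and of the 12 OPC markers (13230 CPM). It was the shallowest tumour, at 4906024 counts. The tumour with the highest Nxf3, Tumor_16840, was at neither end on these lists, at 1382 CPM for proliferation, 394.4 CPM for neuron markers and 7797 CPM for OPC markers. The part of these in the spread of Nxf3 was not tested.

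Per length, Nxf3 reached the range of Nxf1, the general receptor. Dividing CPM by the length of all exons in kilobases (kb), Nxf3 reached 43.0 ± 33.5 CPM per kb in tumours (SD, n = 7), against 29.5 ± 2.73 for Nxf1 in the same tumours. In the other groups Nxf1 had means of 33.6 to 36.8 CPM per kb and Nxf3 of 0.0736 to 0.284. The division assumes, here and for values per length below, that reads cover all exons evenly, which was not checked. Without it the tumour means were 131.1 CPM for Nxf3 and 130.5 CPM for Nxf1. Of the summed Nxf1, Nxf3 and Nxf7 level per length, Nxf3 made up 16.3% in the lowest tumour, 47.7% in the median and 76.9% in the highest. In the other groups the median share of Nxf3 was at most 0.383%, and the highest animal, CKO_20647, had 3.25%.

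**Figure D2:**
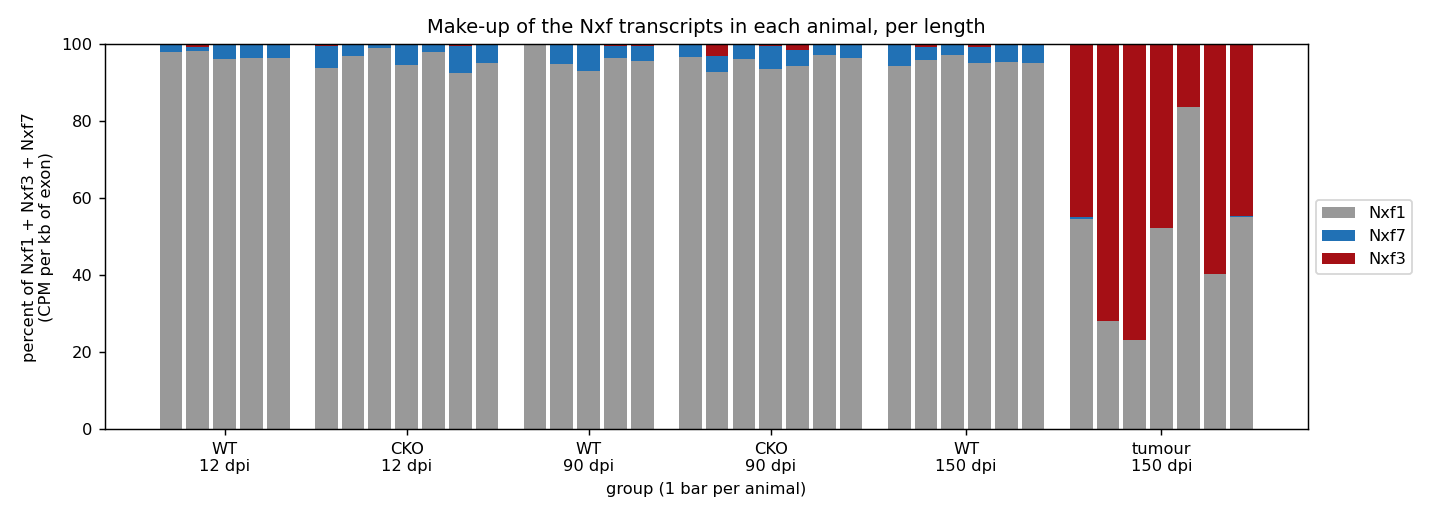
Make-up of the Nxf level in each of 37 animals, as the percent of Nxf1, Nxf7 and Nxf3 in their summed CPM per kb of exon, 1 bar per animal grouped by genotype and time. Nxf3 takes 16.3% to 76.9% in the tumours and at most 3.25% in any other animal, and the Nxf7 band is nearly gone in the tumours. Values of the WT 90 dpi bar with Nxf1 alone come from the shallow WT_21167. The shares assume even coverage of exons.

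Among the genes with the pattern most like Nxf3 over the 37 animals were Ulbp1, Hoxa3, Hoxa2 and Irx2. Likeness was measured as the root mean square difference of log2 CPM after each gene was centred on its own mean, which was 1.35 for Ulbp1 and 1.52 for Irx2, the nearest and the farthest of these 4, against a standard deviation of 3.42 for Nxf3 itself. Ulbp1 encodes a stress ligand seen by natural killer cells, and the others encode developmental homeobox factors. Their tumour means were far lower than that of Nxf3, from 10.6 ± 10.7 CPM for Hoxa2 to 19.4 ± 8.45 CPM for Ulbp1 (SD, n = 7).

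The genes around Nxf3 on the X chromosome showed no rise of its size. The 5 nearest annotated genes on each side were taken, of which 8 had a row in the table and 7 were tested. None of the 7 was called higher in either tumour comparison with edgeR. The largest positive differences were those against CKO at 90 dpi of Tceal8 (0.60, edgeR adjusted p = 0.137) and Bex4 (0.56, 0.151). DESeq2 called 2 of them higher against CKO at 90 dpi, Bex4 by 0.71 (adjusted p = 0.0457) and Tceal8 by 0.76 (adjusted p = 0.0355), both far below the change of Nxf3. Bex2 ends 3.86 kb from Nxf3. Its mean was 302.9 ± 118 CPM in WT at 150 dpi (SD, n = 6) against 118.7 ± 97.3 CPM for the tumours (SD, n = 7), and it fell by 1.37 on the log2 scale (SE 0.33, edgeR adjusted p = 0.00098). Tceal5, 115.7 kb away on the other side, fell by 2.20 (SE 0.32, edgeR adjusted p = 6.48e-07) from 64.66 ± 19.08 CPM in WT (SD, n = 6) to 14.8 ± 9.89 CPM in tumours (SD, n = 7). Against CKO at 90 dpi both fell too, Tceal5 by 2.11 (edgeR adjusted p = 7.65e-07) and Bex2 by 0.89 (edgeR adjusted p = 0.0239). The Bex2 call against CKO was lost with the compared groups fitted alone (adjusted p = 0.0694), with RLE scaling (0.0577) and without CKO_20647 (0.0503), CKO_22146 (0.0503), Tumor_16713 (0.0664) or Tumor_21354 (0.05). Both genes are known from neurons, and the neuron marker sum given below moved with them. Its part in their change was not tested. Gprasp2, Arxes2, Arxes1, Bex4 and Tceal8 did not pass in either comparison, with edgeR adjusted p from 0.0691 to 0.993.

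Nxf7 went the other way and fell in the tumours. It was counted in 6 of 7 tumours, at 0 CPM in the lowest, 0.117 in the median and 0.549 in the highest, from 22 counts in all. In WT at 150 dpi it was at 2.83 CPM in the lowest of 6 animals, 4.39 in the median and 5.61 in the highest, and in CKO at 90 dpi at 2.30, 3.84 and 6.14 in the 7 animals. No tumour reached the lowest animal of either group, as was so for 8.96% of genes tested against WT and 10.5% against CKO.

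The mean of Nxf7 in tumours, 0.167 ± 0.182 CPM (SD, n = 7), was 25.1 times below that of WT at 150 dpi, 4.18 ± 1.03 (SD, n = 6), and 23.2 times below that of CKO at 90 dpi, 3.88 ± 1.23 (SD, n = 7). The fitted change against WT was a fall by 4.72 on the log2 scale (SE 0.49, edgeR quasi-likelihood test with Benjamini-Hochberg adjustment, adjusted p = 6.35e-10). Against CKO at 90 dpi it fell by 4.44 (SE 0.48, edgeR adjusted p = 1.03e-09). In these comparisons 46.2% and 49.1% of all genes tested were called, of which Nxf7 had the 77th and the 105th largest fall. Both comparisons share the tumour samples. Leaving out any 1 animal kept the call, with changes between -5.07 and -4.48 against WT and between -4.82 and -4.21 against CKO.

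Outside the tumours the group means of Nxf7 were 4.27 ± 3.31 CPM in WT at 90 dpi (SD, n = 5), 3.88 ± 2.25 in CKO at 12 dpi (SD, n = 7) and 2.95 ± 1.24 in WT at 12 dpi (SD, n = 5), with the 2 groups above between them, and the ranges of neighbours in this order overlapped. WT_21167 at 90 dpi had no Nxf7 count. At its depth the mean of the other 4 animals would give 0.563 counts, so a 0 there is no sign of a lower level. Without it the WT mean at 90 dpi was 5.34 ± 2.65 CPM (SD, n = 4).

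**Figure D3:**
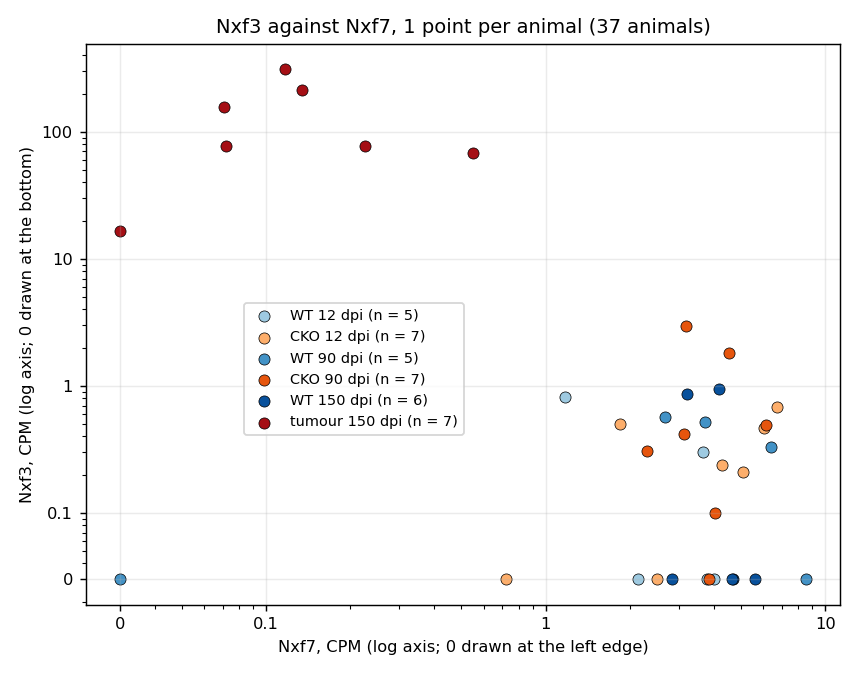
Nxf3 against Nxf7 in 37 bulk animals, both in CPM on log axes with 0 drawn at the lower and left edges, 1 point per animal coloured by group. The 7 tumours lie apart from the 30 other animals, at Nxf3 of 16.6 CPM or more and Nxf7 of 0.549 CPM or less, and the other animal at 0 on both axes is the shallow WT_21167.

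The tumour that kept the most Nxf7, Tumor_16713 at 0.549 CPM from 5 counts, had 67.9 CPM of Nxf3, the second lowest level. The tumour with no Nxf7 count, Tumor_21256, had the lowest Nxf3. Of the Nxf level per length, Nxf7 made up 0.0499% in the median tumour and 0.409% in the highest, against group medians of 3.44% to 4.59% elsewhere.

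Markers of other cell types moved with these changes. The 10 neuron markers summed to 263.0 to 1512 CPM in tumours, 7852 to 11330 in WT at 150 dpi and 7959 to 15610 in CKO at 90 dpi, and with edgeR 9 of 10 fell against WT and 10 of 10 against CKO. The 10 microglia markers summed to 338.5 to 1172 CPM in tumours, 138.6 to 196.0 in WT at 150 dpi and 118.5 to 222.2 in CKO at 90 dpi, with 9 and 10 of 10 higher. The 20 proliferation genes, at 556.4 to 3302 CPM in tumours against 27.1 to 70.1 in WT at 150 dpi and 21.6 to 117.8 in CKO at 90 dpi, were all higher in both comparisons. The 12 OPC markers, which define the sampled cells, were present in every group and summed to 5067 to 13230 CPM in tumours, 2153 to 4359 in WT at 150 dpi and 2347 to 3914 in CKO at 90 dpi, with 11 of 12 higher. Of 10 oligodendrocyte markers 6 fell and 1 rose against WT and 7 fell against CKO, of 10 astrocyte markers 4 rose and 3 fell in each, and of 10 endothelial markers 3 fell against WT and 1 rose against CKO. No marker was at 0 in all animals of the compared groups. In bulk samples fewer cells of a type and less RNA per cell cannot be told apart, and the part of the change in cell types in the values of Nxf3, Nxf7 and the members below was not tested.

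Nxf1 itself was abundant in every group, and no difference of it passed the test. It was at 120 to 153 CPM in the 7 tumours (median 124), 142 to 159 CPM in the 6 WT animals at 150 dpi (median 154) and 122 to 191 CPM in the 7 CKO animals at 90 dpi (median 153). Tumours lay at the low side: 6 of 7 were below every WT animal at 150 dpi, with means of 130.5 ± 12.1 (SD, n = 7) and 153 ± 6.20 CPM (SD, n = 6). The log2 difference was -0.24 (SE 0.13) against WT and -0.25 (SE 0.12) against CKO, and neither passed the test (edgeR adjusted p = 0.127 and 0.0831). Without CKO_20647 the difference from CKO was -0.31 and passed (edgeR adjusted p = 0.0376). It also passed, at -0.29 (edgeR adjusted p = 0.0113), when that animal was kept with its deeper library alone and WT_21167 was left out. At 12 and 90 dpi the group means lay between 149 and 163 CPM, and in the order of the 6 groups neighbours overlapped in range.

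Nxt1, the partner of Nxf1, was higher in the mean of the tumours without passing the test. It was at 3.88 to 12.5 CPM in the 7 tumours (median 8.89) and at 3.19 to 8.58 CPM in the 6 WT animals at 150 dpi (median 3.54), and 4 of 7 tumours lay above every WT animal. The means were 8.10 ± 3.31 (SD, n = 7) and 4.73 ± 2.18 CPM (SD, n = 6). The log2 difference was 0.75 (SE 0.33, edgeR adjusted p = 0.0565), next to the threshold of 0.05. It crossed it in several other fits: without Tumor_16713 (0.81, adjusted p = 0.046), Tumor_16844 (0.91, 0.0211), Tumor_21256 (0.85, 0.0325) or WT_22064 (1.14, 0.00711), and with both doubted libraries left out (0.74, 0.029). The scaling settings that moved it are given with the other alternatives.

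Against CKO at 90 dpi Nxt1 differed by 0.19 (SE 0.30, edgeR adjusted p = 0.624). The CKO animals were at 4.84 to 15.5 CPM (median 5.58), the highest being CKO_20647, and no tumour lay above all of them. Without CKO_20647 the CKO animals were at 4.84 to 7.03 CPM. Above that range lay Tumor_16839 (8.89 CPM), Tumor_16840 (9.94), Tumor_21354 (10.9) and Tumor_21349 (12.5). Leaving out any 1 animal gave differences from 0.0499 to 0.53, and none passed (edgeR adjusted p of 0.13 or more). Elsewhere its means were 6.40 ± 1.47 CPM in WT at 12 dpi (SD, n = 5), 5.90 ± 1.63 in CKO at 12 dpi (SD, n = 7) and 5.50 ± 3.27 in WT at 90 dpi (SD, n = 5), and in the order of the 6 groups neighbours overlapped.

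Nxt2 was the more abundant Nxt gene per length and did not separate the tumours. It was at 31.8 to 139 CPM in tumours (median 52.1) and at 48.8 to 98.9 CPM in WT at 150 dpi (median 58.5), with means of 62.8 ± 36.2 (SD, n = 7) and 65.1 ± 19.6 CPM (SD, n = 6). The log2 difference was -0.052 against WT (SE 0.21, edgeR adjusted p = 0.872) and 0.24 against CKO at 90 dpi (SE 0.21, edgeR adjusted p = 0.351), and the sign against WT turned with RLE scaling (0.10). In Tumor_16839 it was at 139 CPM, and the other 6 tumours were at 31.8 to 73.1 CPM. Without that tumour the difference from CKO was -0.060. Per length Nxt2 had group means of 15.6 to 20.5 CPM per kb and Nxt1 of 4.24 to 7.25.

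The balance between Nxf1 and Nxt1 inside an animal does not depend on the scaling of its library. On the log2 scale Nxf1 exceeded Nxt1 by 4.09 ± 0.54 in tumours (SD, n = 7) and by 5.08 ± 0.62 in WT at 150 dpi (SD, n = 6), a difference of -0.98, with 4 of 7 tumours below every WT animal. The exact two-sided permutation test gave p = 0.0175, and 0.105 after Benjamini-Hochberg adjustment over the 6 ratio comparisons made, so the difference did not pass. It passed with the deepest library of each animal (-1.06, exact p = 0.00583, adjusted 0.035) and without WT_22064 (-1.19, exact p = 0.00758, adjusted 0.0455). Nxt2 exceeded Nxt1 by 2.89 ± 1.06 in tumours (SD, n = 7) and by 3.80 ± 0.78 in WT (SD, n = 6), with an exact p of 0.111 (adjusted 0.332). Nxt1 made up 15.4% to 52.8% of the Nxt level per length in tumours (median 26.9%) and 8.41% to 28.6% in WT at 150 dpi (median 17.1%).

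The genes most like Nxt1 over the 37 animals, by the measure used for Nxf3, were Bop1, Cd302, Unc119, Zbtb25 and Tmem261 (differences from 0.455 to 0.506, against a standard deviation of 1.03 for Nxt1). Those most like Nxt2 were Top2b, Nus1, Fundc2, Rab2a and Tm9sf2 (0.218 to 0.239, against 0.369). At the low counts of Nxt1, WT_21167 with its count of 0 weighs on this measure.

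**Figure D4:**
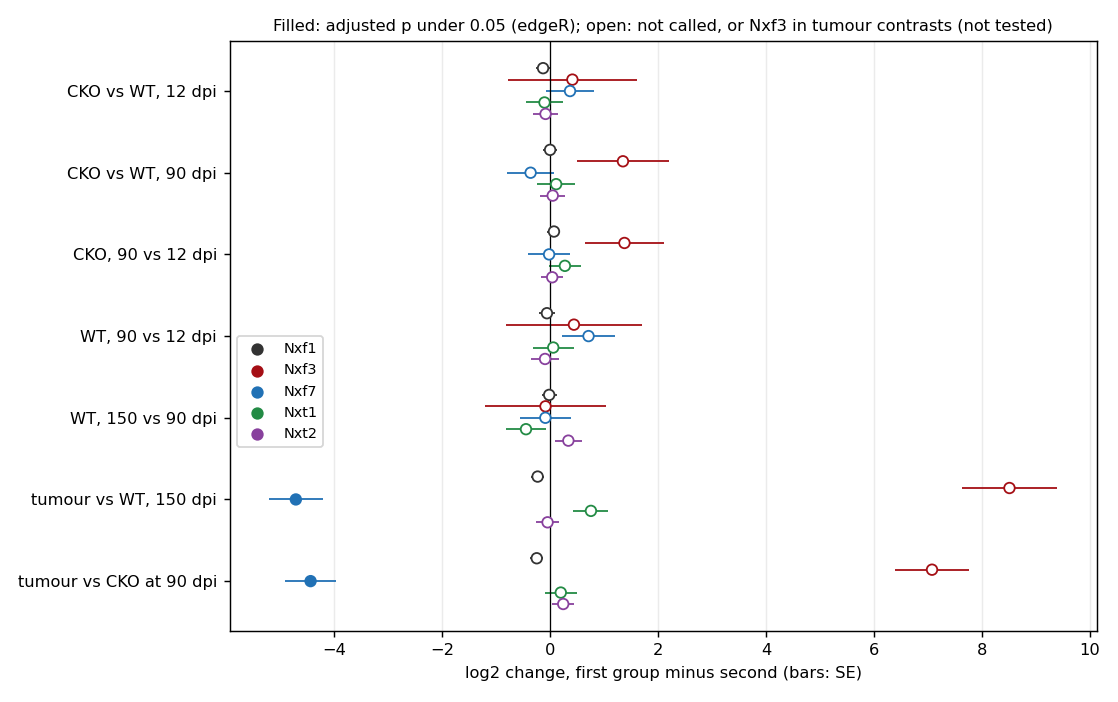
Log2 changes of the 5 members in 7 bulk comparisons from 1 edgeR fit over 37 animals, with the standard error as a bar; filled points passed at an adjusted p of 0.05, open points did not, and Nxf3, drawn open throughout, was not tested. Only Nxf7 in the comparisons with tumours is filled, at -4.72 and -4.44, and Nxf3 lies at 8.51 and 7.07.

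Deletion of Trp53 and Nf1 without a tumour left no call among the 4 tested members. At 12 dpi CKO and WT differed by -0.14 (Nxf1), 0.41 (Nxf3), 0.36 (Nxf7), -0.11 (Nxt1) and -0.089 (Nxt2) on the log2 scale, and 0 of the 4 members tested passed with edgeR (adjusted p = 1 each), none of the 4 had an unadjusted p under 0.05 and DESeq2 called none of them. In that comparison 0.0183% of all genes were called. At 90 dpi Nxf3 had the largest difference, 1.35 (SE 0.85, not tested), and 2 of 7 CKO animals, at 2.94 and 1.81 CPM, lay above the WT range of 0 to 0.566 CPM. The other members differed by -0.37 to 0.11, 0 of 4 passed with edgeR or DESeq2 or had an unadjusted p under 0.05, and 0.0489% of all genes were called.

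Nor did time before the tumours bring a call. Between 12 and 90 dpi in CKO, Nxf3 differed by 1.37 (SE 0.74, not tested) and the other members by -0.02 to 0.27. The 2.94 CPM of CKO_20647 came from 1 of its 2 libraries. Without that animal Nxf3 differed by 0.63 over time in CKO and by 0.50 between CKO and WT at 90 dpi. No tested member passed in these fits or without the doubted libraries. In WT between 12 and 90 dpi Nxf7 differed by 0.71 (SE 0.49), and between 90 and 150 dpi Nxt1 differed by -0.45 (SE 0.36) and Nxt2 by 0.33 (SE 0.24), with edgeR adjusted p of 0.794 or more. Nxf3 differed by 0.44 (SE 1.27) and -0.09 (SE 1.12) in these WT comparisons, not tested. In each of the 3 comparisons 0 of the 4 tested members passed with edgeR or DESeq2 or had an unadjusted p under 0.05, against 0.0%, 0.00612% and 0.0183% of all genes called with edgeR.

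The difference of Nxf7 between tumours and WT at 150 dpi was not that between CKO and WT at 90 dpi. The first joins genotype with tumour state, so a genotype effect over time is not measured here. The log2 difference at 150 dpi minus that at 90 dpi was -4.35 for Nxf7 (SE 0.67, edgeR adjusted p = 3.39e-06). Nxf7 was among 30.0% of genes called, of which 47.2% were higher (57.3% with RLE scaling). For Nxf3 this difference of differences was 7.16 (SE 1.30, not tested), and 8.69 without WT_21593. It was -0.23 for Nxf1 (adjusted p = 0.378), 0.64 for Nxt1 (0.326) and -0.095 for Nxt2 (0.864), none of which passed with edgeR. Between 90 and 12 dpi the genotype effects (CKO against WT) differed by 0.94 for Nxf3 (not tested) and -0.73 for Nxf7. Of the 4 tested members 0 passed with edgeR or DESeq2 or had an unadjusted p under 0.05 (0.0% of all genes called).

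Around the family, single genes of the export machinery passed the test, while in none of the lists of the pathway was the share of genes called above that of all genes (46.2% against WT and 49.1% against CKO). The counts below describe the lists and show nothing particular to them. These numbered 4: TREX and its adaptors, TREX-2, the pore with the release factors, and other export receptors with their GTPase. Of 18 TREX and adaptor genes 5 rose and 2 fell against WT at 150 dpi, with a median log2 difference of 0.08 where that of all genes was 0.06. Of all genes tested 24.3% rose and 21.9% fell. Alyref, the adaptor that hands RNA to NXF1, rose by 0.77 (SE 0.23, edgeR adjusted p = 0.00626), from 24.6 ± 5.22 CPM in WT (SD, n = 6) to 42.4 ± 18.6 in tumours (SD, n = 7), and Ddx39b, the helicase that recruits it, by 0.42 (SE 0.15, edgeR adjusted p = 0.0184). Srsf7, a splicing factor that serves as an NXF1 adaptor, fell by 1.15 (SE 0.36, edgeR adjusted p = 0.00834). Without WT_21592 the calls of Srsf7 (adjusted p = 0.0509) and Ddx39b (0.0584) were lost, leaving 3 higher and 0 lower of the list.

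Against CKO at 90 dpi 4 of the 18 rose and 0 fell with edgeR (median 0.22, all genes 0.12; 26.4% of all genes rose and 22.6% fell), and 7 rose with DESeq2 or RLE scaling. Alyref rose by 0.76 (SE 0.22, edgeR adjusted p = 0.00428), and Sarnp, a partner of the TREX helicase, by 0.55 (SE 0.22, edgeR adjusted p = 0.0391). The Sarnp call was lost in 6 of the 14 fits that left out 1 animal, with an adjusted p of up to 0.128. Of 6 TREX-2 genes, which tie transcription to the pore, 0 passed against WT (median -0.10, edgeR) and 1 rose against CKO: Sem1, also a subunit of the proteasome lid, by 0.71 (SE 0.23, edgeR adjusted p = 0.00939).

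Among 11 genes of the pore and of release, 2 rose and 1 fell against WT (median 0.21) and 3 rose and 1 fell against CKO (median 0.30). The paralogous release helicases parted: Ddx19a rose by 0.75 against WT (SE 0.17, edgeR adjusted p = 0.000314) and 0.53 against CKO (SE 0.16, 0.00535), and Ddx19b fell by 0.42 (SE 0.16, 0.0339) and by 0.59 (SE 0.16, 0.00181). Ddx19a went from 27.0 ± 7.35 CPM in WT (SD, n = 6) to 46.1 ± 8.30 in tumours (SD, n = 7), and Ddx19b from 50.8 ± 8.40 to 38.3 ± 10.1. The fall of Ddx19b against WT was lost in 10 of 13 fits that left out 1 animal and with RLE scaling (-0.27, adjusted p = 0.169), and that against CKO held in all 14. The helicases are close paralogs, and reads that match both were shared out by estimation, so how the reads were split bears on both values. The nucleoporin Nup98 rose by 0.43 against WT (edgeR adjusted p = 0.0282; 0.054 without WT_21590), and Nup88 and Nup62 rose by 0.45 each against CKO (0.0126 and 0.0361). Nup88 was not called without Tumor_21349 (0.0757), and Nup62 in 7 of 14 such fits.

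Of the 5 other export receptors and their GTPase, 2 rose in each comparison and 0 fell (median 0.57 in both, edgeR). Xpot, the exporter of transfer RNA, rose by 0.59 against WT (SE 0.19, edgeR adjusted p = 0.00894) and by 0.66 against CKO (SE 0.18, 0.00213). Xpo5, the exporter of microRNA precursors, rose by 0.57 against WT (SE 0.19, 0.0128), and Ran, the GTPase that drives the receptors other than NXF1, by 1.22 against CKO (SE 0.32, 0.00185). With the compared groups fitted alone the calls against WT of Ddx39b (adjusted p = 0.0892), Srsf7 (0.0862), Nup98 (0.0756), Ddx19b (0.179), Xpot (0.0873) and Xpo5 (0.106), and those against CKO of Sarnp (0.105), Nup88 (0.0594) and Nup62 (0.108), were lost. At 12 and 90 dpi 0 genes of the 4 lists passed between CKO and WT with edgeR, nor did any between times in CKO.

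Because NXF3 is best known from testis, germline genes were set beside it. Of 28 listed germline genes that the table held, 11 were tested, so those at or near 0 throughout are not in the counts. With edgeR 4 of the 11 rose against WT, where 24.3% of all genes rose, and 4 against CKO, where 26.4% did, and 0 fell. Genes that entered through the tumours had to differ, so the count is no sign of a list that stands apart. With the compared groups fitted alone 1 rose against WT and 2 against CKO, and 2 rose against CKO without CKO_20642, CKO_22154, CKO_22212, Tumor_16844 or Tumor_21256. Smc1b, Piwil2, Tdrd9 and Piwil4 had means of 0.459 CPM or less outside the tumours in the comparisons that called them. Their changes are therefore given as a description with no p. Smc1b, a meiotic cohesin, had a mean of 0.0740 ± 0.117 CPM in WT at 150 dpi (SD, n = 6) against 2.04 ± 1.85 CPM for the tumours (SD, n = 7). Its change was 4.47 against WT and 3.36 against CKO. It stayed among the tested genes in 7 of the 13 fits against WT and 3 of the 14 against CKO that left out 1 animal, so these values rest on the filter. Piwil2, a PIWI protein that binds small RNAs of the germline, had a tumour mean of 3.51 ± 4.22 CPM (SD, n = 7). Its change was 3.81 against WT and 3.01 against CKO. Tdrd9, a helicase of the same pathway, had a change of 3.72 against WT. The testis bromodomain gene Brdt rose by 1.04 against WT (edgeR adjusted p = 0.00309). Sycp1, part of the meiotic synaptonemal complex, rose by 1.92 against CKO (edgeR adjusted p = 0.0194). Its adjusted p was 0.118 without Tumor_21256 and 0.0645 with the compared groups alone. Piwil4 had a change of 2.77 against CKO. Its call was lost without a filter, and in 4 of 11 fits that left out 1 animal and kept it among the tested genes. The levels of these germline genes in tumours were from 0.719 ± 0.674 CPM for Piwil4 to 21.1 ± 29.0 for Sycp1 (SD, n = 7), all under the mean of Nxf3. Nxf2, the remaining Nxf gene of the table, was on this list, did not pass the filter on low counts, and was at 0 to 0.539 CPM in tumours and 0 to 2.90 CPM in WT at 150 dpi.

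The small libraries, all from CKO cells before tumours, held no Nxf3 read. The gene had 0 counts in all 192 libraries, which together held 777974006 counts. A count of 0 allows up to 1.56% of libraries to hold a read, and up to 0.00386 CPM over all of them. Both limits cover the counting of reads alone. Loss of transcripts before sequencing was not measured, so neither limit bounds the level of Nxf3 in the cells. The bulk CKO animals at the same times had means of 0.299 and 0.866 CPM. The bulk libraries were made by linear amplification and the small ones by amplification with PCR, and the levels were set on separate scales, so they are given side by side and not compared.

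Nxf7 was almost as rare there. It was counted in 3 of 56 10-cell libraries at 12 dpi (5.36%, exact 95% binomial interval 1.12 to 14.9%) and in 3 of 56 at 90 dpi. In the controls it was counted in 1 of 40 libraries at 12 dpi (2.50%, interval 0.0633 to 13.2%) and 4 of 40 at 90 dpi (10.0%, interval 2.79 to 23.7%). The binomial intervals here and below take libraries as separate draws and leave out the spread between sets. The mean level of Nxf7 was 0.0263 to 0.0846 CPM.

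Nxf1 was found in nearly every small library. It was counted in 51 of 56 10-cell libraries at 12 dpi (91.1%, interval 80.4 to 97.0%), in 56 of 56 at 90 dpi (interval 93.6 to 100%), and in 39 of 40 controls at each time (97.5%, interval 86.8 to 99.9%). The 10-cell share was 85.7% to 92.9% in the 4 sets at 12 dpi and 100% in the 4 sets at 90 dpi. The exact permutation test over sets gave p = 0.0286, the smallest that 4 sets against 4 allow, and 0.229 after adjustment over the 8 tests of this kind. The level pointed the other way: the fitted change was -0.96 (SE 0.34, edgeR adjusted p = 0.652), with 131.1 to 274.9 CPM in the summed sets at 90 dpi and 230.5 to 397.4 at 12 dpi, so no order of the times is read from either. In the controls Nxf1 differed by -0.14 (SE 0.40, edgeR adjusted p = 0.966).

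Nxt1 and Nxt2 were each counted in about as many libraries as not. Nxt1 was counted in 22 of 56 10-cell libraries at 12 dpi (39.3%, interval 26.5 to 53.2%) and 32 of 56 at 90 dpi (57.1%, interval 43.2 to 70.3%), and in 22 and 18 of 40 controls. Nxt2 was counted in 29 of 56 (51.8%, interval 38.0 to 65.3%) and 37 of 56 (66.1%, interval 52.2 to 78.2%) 10-cell libraries, and in 18 and 25 of 40 controls. No difference in these shares between times passed, with exact permutation p of 0.286 to 0.657 (adjusted 0.838 or more). Nor did one in their levels: Nxt1 differed by 0.87 (SE 0.83, edgeR adjusted p = 0.838) in 10-cell libraries and -1.58 (SE 0.99, 0.733) in controls, and Nxt2 by 0.36 (SE 0.99, 0.954) and 1.48 (SE 1.26, 0.799). Over all genes 0.0% were called in 10-cell libraries and 0.0% in controls, with 1034 of 14500 and 1050 of 13408 at an unadjusted p under 0.05.

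**Figure D5:**
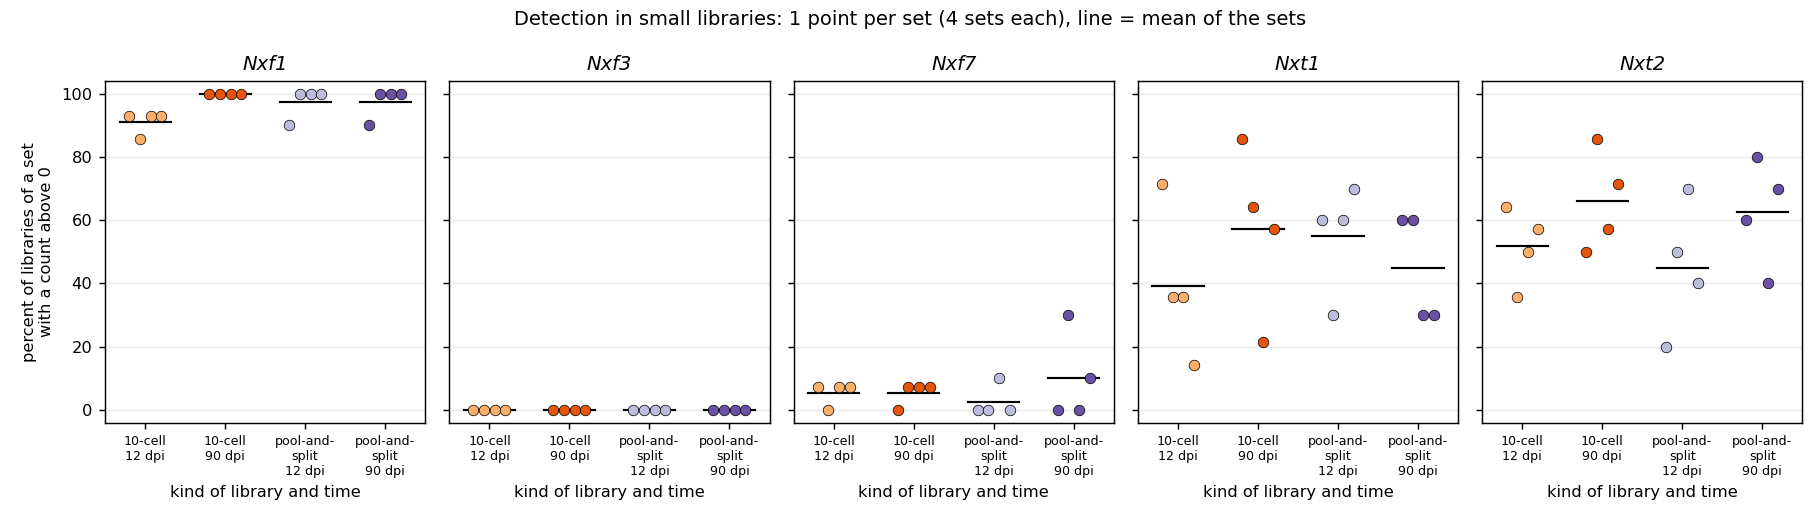
Percent of the small libraries of a set with a count above 0 for each member, 1 point per set (4 sets for each kind and time), with the mean of the sets as a line. Nxf3 is at 0 in every set, Nxf7 at 30% or less, Nxf1 at 85.7% or more, and the sets of Nxt1 and Nxt2 overlap between times and between kinds of library.

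When the gene was counted, Nxt1 reached far higher levels in single libraries than Nxt2. The highest 10-cell library was at 631.6 CPM for Nxt1 and 45.5 CPM for Nxt2, and the highest control at 2333 and 48.3 CPM, while the medians were at most 1.48 and 1.23 CPM. A larger spread in 10-cell libraries than in the controls of the same set was not shown: the standard deviation of log2(CPM + 1) differed by -0.10 for Nxf1 (4 of 8 sets larger in 10-cell libraries, exact sign-flip p = 0.828) and by 0.26 for Nxt2 (6 of 8 sets, exact p = 0.328). Nxt1, Nxf3 and Nxf7 were counted in under 50% of libraries and were not tested for spread.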

How the data were processed

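RNA was sequenced from laser-captured cells of 240 libraries. Expected counts per gene were deposited by the authors in 1 compiled table, with Bowtie2, RSEM and GRCm38 named in the submitters' processing notes without versions. Counts were summed per animal (bulk) or per set (small libraries) and rounded, and 92 spike-in rows were left out.

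Genes were kept by filterByExpr (minimum count 10, total 15), scaled by TMM over the kept genes and tested with edgeR 4.0.16 (quasi-likelihood, R 4.3.3) with sex as covariate, all 6 bulk groups in 1 fit and adjusted p under 0.05 as the call. Single values were tested by exact permutation (scipy 1.17.1), log2 CPM a prior count of 2, and the spread of small libraries a pseudocount of 1. Simulated tumour and WT counts gave calls for 71.0% of 4-fold and 90.0% of 16-fold changes. At 4-fold the small fits recovered 8.0% (10-cell) and 2.0% (controls). Standard errors were taken from the change and its F value.

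Alternatives were DESeq2 1.42.0, RLE scaling, other filters and library choices, and leaving out each animal or set. Library sizes over all genes, and leaving out WT_21167 and the second library of CKO_20647, were added after seeing the data. Depth was 93644 to 23199092 counts per bulk library, 1639364 to 6489230 for 10-cell libraries and 1906744 to 5160733 for controls. More depth narrows counting error, and low counts (Nxf3 outside tumours, Nxf7 in them) are the least precise.

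Members, lists and tests were chosen with earlier results of these data known. All 5 members are named in each group. Named per tumour comparison are, of each export list, up to 3 called genes in each direction with the largest change and a level above the median, of the germline list each called gene, of markers counts and sums, and the 5 genes most like Nxf3, Nxt1 and Nxt2 and nearest to Nxf3 on each side. Of those most like Nxf3, 1 is not reported here. Nxf2, CKO_20647 and WT_21167 were singled out after their values were seen. Same-numbered small sets did not deviate together. Replicates are animals as numbered in the titles.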

Additional observations from a re-analysis of the deposited data

Results flagged for a closer look

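Of 50 groups of 4 to 10 values checked, 10 held a value farther from its neighbours than Dixon's limit allows, where chance flags about 1 in 20 groups. In the bulk libraries these were Nxf1 at 141.8 CPM in WT_22064 at 150 dpi (the other 5 at 152.5 to 158.9), Nxf7 at 0.549 CPM in Tumor_16713 (the other 6 at 0 to 0.226), Nxt1 at 15.5 CPM in CKO_20647 at 90 dpi (the other 6 at 4.84 to 7.03) and Nxt2 at 139.1 CPM in Tumor_16839 (the other 6 at 31.8 to 73.1). The value of CKO_20647 comes from an animal whose 2 libraries differed, at 6.93 and 19.8 CPM.

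In the small libraries the shares of libraries with a count are coarse, so 1 library can set a set apart. Nxf1 was counted in 90.0% of the controls of the set female 1 at 12 dpi and in 90.0% of the set female 1 at 90 dpi, where the other 3 sets were at 100%, and in 85.7% of the 10-cell libraries of the set female 2 at 12 dpi (others 92.9%). Nxf7 was counted in 10.0% of the controls of the set male 1 at 12 dpi (others 0), and in 0 of the 10-cell libraries of the sets female 2 at 12 dpi and female 1 at 90 dpi (others 7.14%).

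For Nxf7 tumour against WT at 150 dpi minus CKO against WT at 90 dpi was -4.35 on the log2 scale. The SE was 0.67 and the edgeR adjusted p 3.39e-06. The first of these joins genotype with tumour state. All 7 tumours lay below all 6 WT animals at 150 dpi, while CKO and WT overlapped at 90 dpi.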

How the results depend on the processing

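The falls of Nxf7 in both tumour comparisons and the position of Nxf3 kept direction and call (Nxf3: direction) under each alternative run. Nxt1 against WT passed with DESeq2 (0.88), RLE scaling (0.90), the deepest library of each animal (0.74), library sizes over all genes (0.78, adjusted p = 0.0491; the TMM reference then moves from WT_22254 to the doubted CKO_20647) and without the doubted libraries (0.74). Nxf1 against CKO at 90 dpi passed with the deepest libraries (-0.31) and without the doubted libraries (-0.29). In each of these fits 2 tested members were called in place of 1. RLE and DESeq2 moved the median of all genes against WT by 0.15 on the log2 scale (to 0.22 and 0.21) and against CKO by 0.17 (to 0.29). Relative to that median Nxt1 differed from WT by 0.69 with TMM and 0.68 with RLE, and Nxt2 by -0.11 with either. Nxt2 against WT turned sign with DESeq2 (0.10), RLE (0.10) and the compared groups alone (0.00360). Its difference from WT at 150 dpi (tumours) minus that at 90 dpi (CKO) turned with DESeq2 (0.0661) and RLE (0.0664). The spread of Nxf1 turned with a pseudocount of 0.1 (0.0475). The cause of these moves was not tested.

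Differences that passed no test turned sign as follows. For CKO against WT at 90 dpi these were Nxf1 without a filter (5.62e-05) and with the deepest libraries (0.00399), and Nxt1 with the deepest (-0.13) and without the doubted libraries (-0.23). For CKO at 90 against 12 dpi they were Nxf7 and Nxt2 with the deepest libraries (0.16 and -0.00951), and Nxf7 and Nxt1 without the doubted libraries (0.11 and -0.0114). Without the doubted libraries Nxf1 also turned in WT at 90 against 12 dpi (0.0428) and Nxt1 in the effect at 90 minus 12 dpi (-0.11), and with the deepest libraries both ratios to Nxt1 turned at 12 dpi (0.0165 and 0.0193).

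Leaving out 1 animal or set gave, against WT at 150 dpi, 7.94 to 10.01 for Nxf3, 0.63 to 1.14 for Nxt1 and -0.35 to 0.10 for Nxt2, with 1 to 2 tested members called. Against CKO at 90 dpi it gave -0.31 to -0.19 for Nxf1 and -0.0598 to 0.37 for Nxt2, with 1 to 2 called. The difference from WT at 150 dpi (tumours) minus that at 90 dpi (CKO) ranged from 6.62 to 8.69 for Nxf3 and -0.39 to 0.0707 for Nxt2. For CKO against WT at 12 dpi Nxf3 ranged from -0.12 to 2.63 and Nxt1 from -0.22 to 0.00310, and at 90 dpi Nxf1 from -0.11 to 0.0871, Nxt1 from -0.23 to 0.23 and Nxt2 from -0.00475 to 0.0805. Over time in CKO Nxf7 ranged from -0.22 to 0.17, Nxt1 from -0.0642 to 0.34 and Nxt2 from -0.0306 to 0.0884. In WT from 12 to 90 dpi Nxf1 ranged from -0.15 to 0.0404, Nxf3 from -0.10 to 2.67 and Nxt1 from -0.0716 to 0.16, and from 90 to 150 dpi Nxf1 from -0.12 to 0.0387, Nxf3 from -1.62 to 0.45 and Nxf7 from -0.28 to 0.0914. The effect at 90 minus 12 dpi ranged from -1.29 to 1.47 for Nxf3 and -0.10 to 0.33 for Nxt1. The log2 ratio of Nxf1 to Nxt1 in tumours against WT, which passed with the deepest libraries (-1.06, adjusted p = 0.035), ranged from -1.19 (adjusted p = 0.0455, without WT_22064) to -0.89. That of Nxt2 to Nxt1 ranged from -0.14 to 0.14 at 12 dpi and -1.36 to 0.0765 at 90 dpi (positive without WT_21167), and that of Nxf1 to Nxt1 from -0.0925 to 0.14 at 12 dpi. In small libraries Nxf1 ranged from -0.38 to 0.22 in controls. Its rise in 10-cell detection ranged from 7.14 to 9.52 points (exact permutation p = 0.0571 each). That is the smallest p that 35 assignments allow, so no such fit could pass. The spread difference of Nxf1 ranged from -0.26 to 0.20 and that of Nxt2 from 0.16 to 0.46 (exact sign-flip p = 0.0469 without female 1 at 90 dpi).

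Counts over all genes moved most where few were called. DESeq2 called 13 in place of 3 genes for CKO against WT at 12 dpi (92 with the compared groups alone), 14 in place of 8 at 90 dpi, 2 in place of 0 in CKO over time (1 alone), 9 in place of 1 in WT from 12 to 90 dpi (295 alone), 20 in place of 3 from 90 to 150 dpi (5 without the sex term), 6 in place of 0 for the effect at 90 minus 12 dpi (1 without a filter), 274 in place of 0 in 10-cell libraries and 523 in place of 0 in controls (1 without a filter). Of the pore list DESeq2 called 5 higher against WT and RLE 4, in place of 2, and with the compared groups alone 1. With the compared groups alone 1 of the TREX and adaptor list and 0 of the other receptors rose against WT. Of the germline list 7 rose against CKO without a filter, in place of 4, and 2 with the compared groups alone, where 1 in place of 4 rose against WT. Leaving out 1 animal gave 3 to 5 against WT and 2 to 4 against CKO, with 0 to 1 lower in either.

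Small sets share a number and sex across times, but sets with the same number did not deviate together (correlations of -0.0339 to 0.0184 in 10-cell libraries and -0.0393 to 0.00277 in controls), so the numbers were not taken as pairs. With a replicate block the 10-cell changes were -0.93 for Nxf1, 0.83 for Nxt1 and 0.21 for Nxt2, the control changes -0.09, -1.58 and 1.31, and 0 members and 0 genes were called.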
